A study of Homo sapiens with 10 samples.

Results

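H3K27ac ChIP-seq peak lists of SKBR3 cells, an established HER2 breast cancer line, were examined for promoter regions that appeared after TWEAK. A region was counted as gained when both TWEAK libraries had a peak there and neither untreated library did. It also had to lie at most 1 kb from the transcription start site (TSS) of a gene of any type in GENCODE release 44. These 259 regions were therefore chosen by the peak calls of the 4 SKBR3 libraries, and their absence without TWEAK is part of how they were selected and not a finding. They were drawn from 62104 merged SKBR3 regions, of which 15357 lay at a TSS, so gained promoter regions made up 1.69% of those at a TSS. The same rule with the treatments exchanged gave 179 lost promoter regions, or 1.17%, and 12062 regions at a TSS were present in all 4 lists. A further 2606 gained regions lay away from any TSS. With SKBR3 lists of equal size the counts were 207 gained and 234 lost, so the excess of gained regions did not hold there. With peaks of −log10 q of at least 5 only, 25 of the 259 were among the gained regions.

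SKBR3 cells and MDA-MB-453 cells, another HER2 line, were each measured in 2 untreated libraries and 2 libraries treated with TWEAK at 10 ng/ml for 48 h. All cells had been starved in optimem for 8 h beforehand, and the ligand was renewed at 24 h. The 4 MDA-MB-453 libraries took no part in the choice of regions. The study's methods call its ChIP-seq replicates biological, while the labels do not say what set a pair of libraries apart. Each line is a single cultured line, and the labels name no genetic alteration.

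TWEAK is a cytokine of the TNF family that binds the receptor Fn14. Fn14 recruits TRAF adaptors and can activate NF-κB, in its canonical and non-canonical forms, as well as MAP kinases that feed AP-1. In the study's immunoblots, TWEAK activated non-canonical but not canonical NF-κB in all lines, SKBR3 and MDA-MB-453 among them. JNK was induced selectively in triple-negative lines, and ERK phosphorylation did not change. The study's RNA analysis found NF-κB, TNF, AP-1 and MAPK pathways enriched in HER2 lines as well. H3K27ac is an acetyl mark on histone H3 that accompanies active promoters and enhancers. NF-κB dimers bind a short, nearly palindromic κB site, and AP-1, made of FOS and JUN proteins, binds TGACTCA or TGAGTCA.

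The gained regions that ranked highest are shown first by the κB sites found in them, because 8 of the upper 10 held a match to the NF-κB consensus in the 1000 bp around the midpoint. Of these 10, 6 held a narrower form of the consensus. They are not the same set as the sequences below. The TRAF1 match fits only the wider form, and ENSG00000203266, which held the narrower form, is not shown. The sequences below are the plus strand of hg38, 5′ to 3′, with the match in capitals. They lie in chr1:61481304-61481363 for the lncRNA ENSG00000284808, chr21:33204325-33204384 for IFNAR2, chr12:52650696-52650755 for KRT2, chr20:54180512-54180571 for the non-coding gene ENSG00000286587, chr1:212952454-212952513 for VASH2 and chr9:120926549-120926578 for TRAF1. The TRAF1 stretch touches an exon and is cut short. The other 5 do not touch an annotated exon. For ENSG00000284808, KRT2 and TRAF1 the consensus reads on the minus strand.
ENSG00000284808: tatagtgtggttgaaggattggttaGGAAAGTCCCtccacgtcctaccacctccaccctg
IFNAR2: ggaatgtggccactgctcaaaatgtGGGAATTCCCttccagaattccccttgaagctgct
KRT2: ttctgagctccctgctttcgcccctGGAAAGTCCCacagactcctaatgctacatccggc
ENSG00000286587: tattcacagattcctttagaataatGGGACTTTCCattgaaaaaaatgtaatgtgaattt
VASH2: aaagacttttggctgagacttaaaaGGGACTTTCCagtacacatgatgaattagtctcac
TRAF1: ccttcctggtGGAAATCCCCagggtgttgg

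Among these, the ENSG00000284808, KRT2, ENSG00000286587 and VASH2 sites spell the same 10 bases, read on one strand or the other. The IFNAR2 site is a full palindrome. It lies 927 bp upstream of the TSS, and the TRAF1 site lies 232 bp downstream of its TSS. A match is a description of the letters and does not show that a factor was bound.

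Sites of both kinds occurred together at SGPP2, which encodes a phosphatase of sphingosine-1-phosphate. Its gained region, chr2:222423450-222424809, ranked 50 of 259. The stretch below, chr2:222423738-222423987 on the plus strand, is the upstream part of a RefSeq promoter of GRCh38.p14 and holds 2 NF-κB matches and 1 AP-1 match, in capitals. SGPP2 was picked after its values were seen.
SGPP2: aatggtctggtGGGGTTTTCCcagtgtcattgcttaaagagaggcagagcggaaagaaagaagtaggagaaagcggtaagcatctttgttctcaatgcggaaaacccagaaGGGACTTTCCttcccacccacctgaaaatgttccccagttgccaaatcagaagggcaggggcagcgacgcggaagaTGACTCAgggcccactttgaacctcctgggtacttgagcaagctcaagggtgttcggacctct

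AP-1 matches are shown for MMP9, in chr20:46007222-46007278, 1658 bp upstream of the TSS, and for GBP1, in chr1:89065500-89065556, 168 bp upstream. Both gained regions belong to genes of the lists described further on, and neither held an NF-κB match in the 1000 bp around its midpoint. The MMP9 region is 2336 bp wide, so part of it lies outside this window.
MMP9: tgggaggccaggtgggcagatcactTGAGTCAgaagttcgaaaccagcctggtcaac
GBP1: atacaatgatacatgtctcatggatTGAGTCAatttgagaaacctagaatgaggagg

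The libraries differed in how much they listed. The SKBR3 lists held 45157 and 43684 peaks without TWEAK and 45371 and 51687 with it, and the 4 MDA-MB-453 lists held between 36148 and 37813. Reads were not used, and sequencing depth is unknown. ERBB2, the amplified receptor gene of HER2 lines, had a peak at a TSS in all 8 lists, and 15 of 20 luminal breast marker genes had one in all 4 SKBR3 lists.

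Most gained promoter regions carried weak peaks in the TWEAK lists. In TWEAK replicate 1 their −log10 q, the caller's measure of confidence, ran from 1.08 to 21.5 with a median of 2.24, and in replicate 2 from 1.12 to 58.3 with a median of 3.67. The regions at a TSS in all 4 lists had medians of 15 and 14. Of the 259, 123 were under 2 in at least 1 TWEAK list and 30 were under 2 in both, while 25 reached 5 in both. Fold enrichment over background had medians of 3.08 and 3.46. Strength is given below as a percentile, the rank of a peak by −log10 q within its own list, so that the strongest peaks have the highest values. The medians were 22.5 in replicate 1 and 41.2 in replicate 2, and 201 regions ranked higher in replicate 2, the library with the most peaks. Only 27 exceeded the 50th percentile in both lists.

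**Figure D1:**
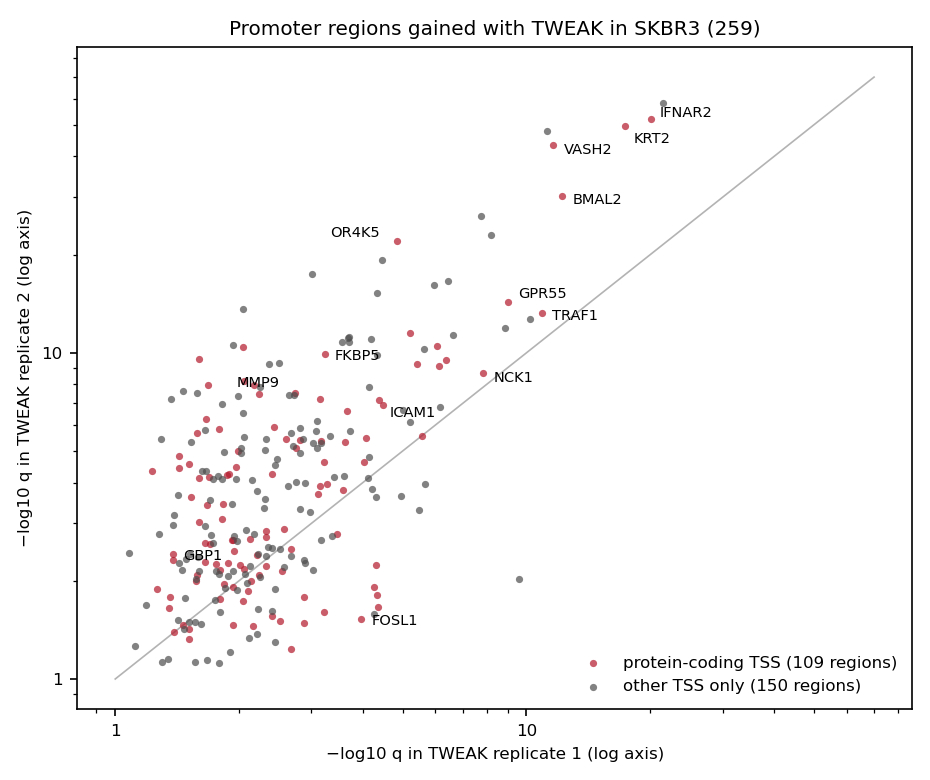
Each point is 1 of the 259 promoter regions gained in SKBR3, with its −log10 q in TWEAK replicate 1 on the x axis and in TWEAK replicate 2 on the y axis, both log axes; red marks the 109 regions at a protein-coding TSS and grey the 150 others, and the line marks equal values. Most points crowd at low values and above the line, and IFNAR2, KRT2, VASH2 and BMAL2 stand at the upper right with a few non-coding regions.

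The threshold of the rule decided many memberships. At a TSS, 150 regions had peaks in both TWEAK lists and in untreated replicate 1 alone, with a median untreated −log10 q of 1.91, and 82 of these untreated peaks were under 2. Another 243 had peaks in both TWEAK lists and in untreated replicate 2 alone, with a median of 2.80 and a highest value of 24.3, and 64 of these were under 2. Regions of both kinds failed the rule by 1 untreated peak. By distance, the gained regions nearest the limit on the inside were those of LINC01449, 977 bp from its TSS, and RAB14, a vesicle-trafficking GTPase, 978 bp from its TSS. Just outside were CLIP3 at 1046 bp and the lncRNA ENSG00000254197 at 1052 bp. RAB14 had percentiles of 3.41 and 50.1 in the TWEAK lists, LINC01449 17.2 and 62.0, CLIP3 38.5 and 69.2, and ENSG00000254197 12.4 and 35.0.

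The strongest gained region belonged to ENSG00000284808, at chr1:61479937-61482615, which ranked at percentiles 83.1 and 96.6 and had fold enrichments of 8.15 and 15.2. It holds the annotated TSS, inside an intron of another gene. IFNAR2 followed. It encodes a subunit of the type I interferon receptor, and its region, chr21:33202870-33205311, had percentiles of 82.1 and 95.7, −log10 q of 20.1 and 51.9 and fold enrichments of 8.49 and 15.4. This region ends just past a non-canonical TSS. The nearest untreated peaks lay 24555 and 24353 bp away, and IFNAR2 also had another TSS with a region in all 4 lists. The gained region was thus a further one at a gene already marked.

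KRT2, a keratin of the epidermis, had a region at chr12:52649229-52652315 with percentiles of 79.7 and 95.3. It held the canonical TSS and its midpoint fell in an intron. The nearest untreated peaks were 3020 and 2713 bp away. VASH2, a vasohibin that acts on tubulin and in angiogenesis, had percentiles of 72.2 and 94.0 at chr1:212951630-212953739, an intronic region 963 bp from a non-canonical TSS. There were 3 other gained regions within 50 kb of it, and no other member named here had as many. BMAL2, a partner of CLOCK in the circadian machinery, had percentiles of 73.2 and 89.8 over its canonical TSS at chr12:27330093-27333114.

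All 4 of these genes ranked higher in TWEAK replicate 2 than in replicate 1, and none of their regions had a peak in any MDA-MB-453 list. The remaining protein-coding regions among the 12 highest, after TRAF1, were lower. GPR55, a receptor for lysophosphatidylinositol, had percentiles of 66.8 and 77.1, and NCK1, an adaptor that links receptor tyrosine kinases to actin, 63.7 and 66.0. FABP6, an intestinal bile acid carrier, had 57.1 and 70.5, PAK3, a p21-activated kinase, 53.0 and 72.6, and ZP4, an egg coat protein, 57.3 and 67.4. C11orf16 had 58.4 and 68.3. The olfactory receptor gene OR4K5 had 50.7 and 84.9, but its region was also listed in all 4 MDA-MB-453 libraries, at percentiles 47.0 and 34.7 without TWEAK and 53.5 and 39.9 with it. NCK1 had the widest gained region, 4814 bp, followed by LINC02399 at 4715 bp and TRIO, a guanine nucleotide exchange factor, at 4350 bp.

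**Figure D2:**
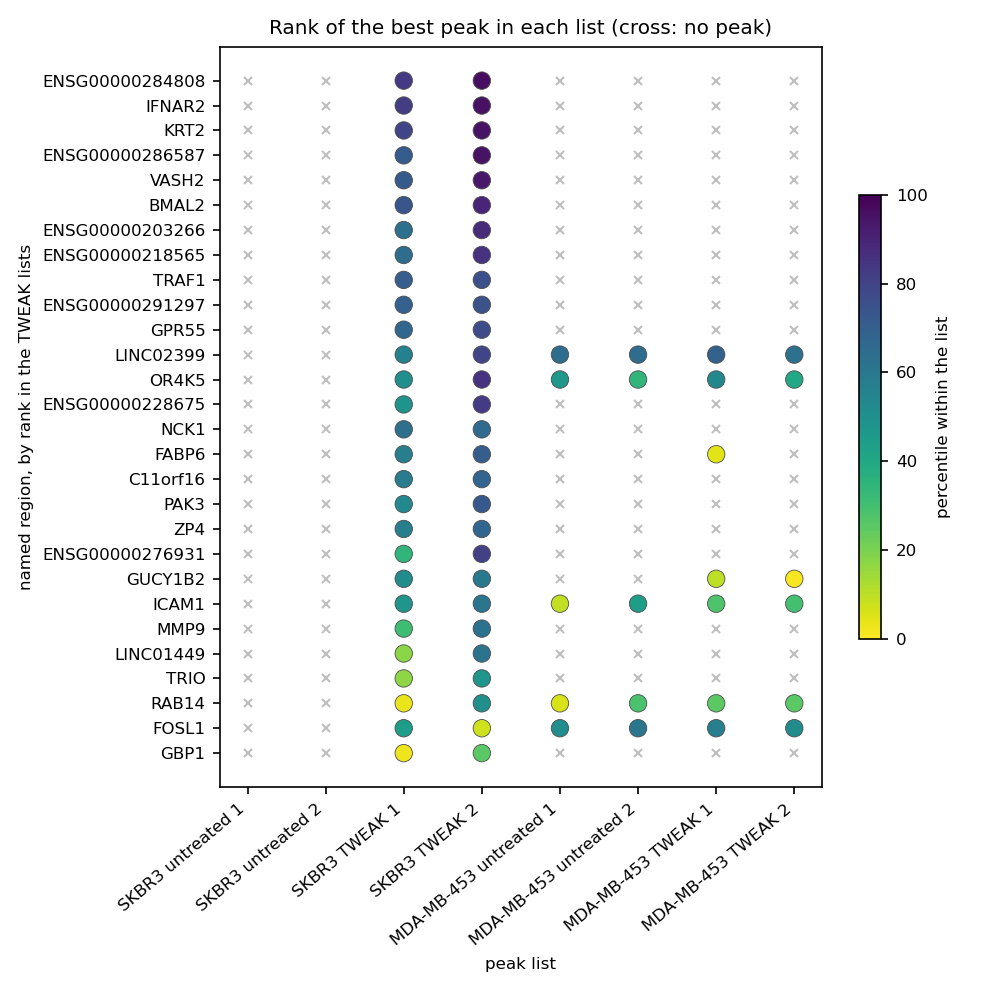
Rows are the gained promoter regions named by rule, in order of rank, and columns are the 8 peak lists; colour gives the percentile of the best peak within its list and a cross marks no peak. The 2 SKBR3 untreated columns are empty by the choice of regions, and of the 28 rows only LINC02399, OR4K5, ICAM1, FOSL1 and RAB14 are filled in all 4 MDA-MB-453 columns.

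Non-coding genes and pseudogenes took a large place in the rest of the upper ranks. ENSG00000286587 on chromosome 20 had percentiles of 71.4 and 95.1, ENSG00000203266 63.3 and 87.8, the processed pseudogene ENSG00000218565 64.8 and 85.6, and ENSG00000291297 69.5 and 74.8. ENSG00000286587 and ENSG00000203266 each held 2 NF-κB matches, and ENSG00000291297 and ENSG00000228675 each held 3. ENSG00000276931 held 2. At least 2 matches were found in 19 of the 259 regions.

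The gained set was read against lists of genes of the pathway. The lists were themselves chosen with earlier results of these data known, so their counts are a description. Of 50 NF-κB target genes, 3 had a gained promoter region, TRAF1, ICAM1 and MMP9, and 0 had a lost one. Of all 19970 protein-coding genes, 0.541% had a gained and 0.721% a lost promoter region. Among the other 47 NF-κB targets, 24 genes had a region in all 4 lists and 23 had no region at all, among them CXCL8, CCL20 and VCAM1. Over all 19970 protein-coding genes, 10808 had a region in all 4 lists and 7911 had none. The calls of ICAM1 and MMP9 were lost with peaks of −log10 q of at least 5 only, where TRAF1, CFLAR and TNIP1 were the NF-κB targets with a gained region. The MMP9 call was also lost with an overlap of 50% and with merging across 1 kb.

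TRAF1, an adaptor of TNF receptors and itself induced by NF-κB, had the strongest of the 3. Its region at chr9:120924658-120927651 holds the canonical TSS, with percentiles of 71.0 and 75.5, −log10 q of 10.9 and 13.2 and fold enrichments of 5.91 and 6.62. Both replicates placed it in the upper part of their lists, and the nearest untreated peaks were 8065 and 7809 bp away. Counted over every TSS of TRAF1, untreated replicate 1 had a peak at percentile 30 within 1 kb of another TSS, and the MDA-MB-453 lists had such peaks at 9.97, 29.6, 40 and 8.77. ICAM1, an adhesion molecule for leukocytes, had percentiles of 47.7 and 61.3 over its canonical TSS at chr19:10270321-10272210. In MDA-MB-453 the same region had peaks in every list, at percentiles 8.99 and 44.8 without TWEAK and 28.1 and 29.7 with it, and these overlapped. MMP9, a matrix metalloproteinase, had percentiles of 31.0 and 62.6 at chr20:46006518-46008853, which ends 55 bp before the TSS. A peak of untreated replicate 2 lay 1183 bp from this region.

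**Figure D3:**
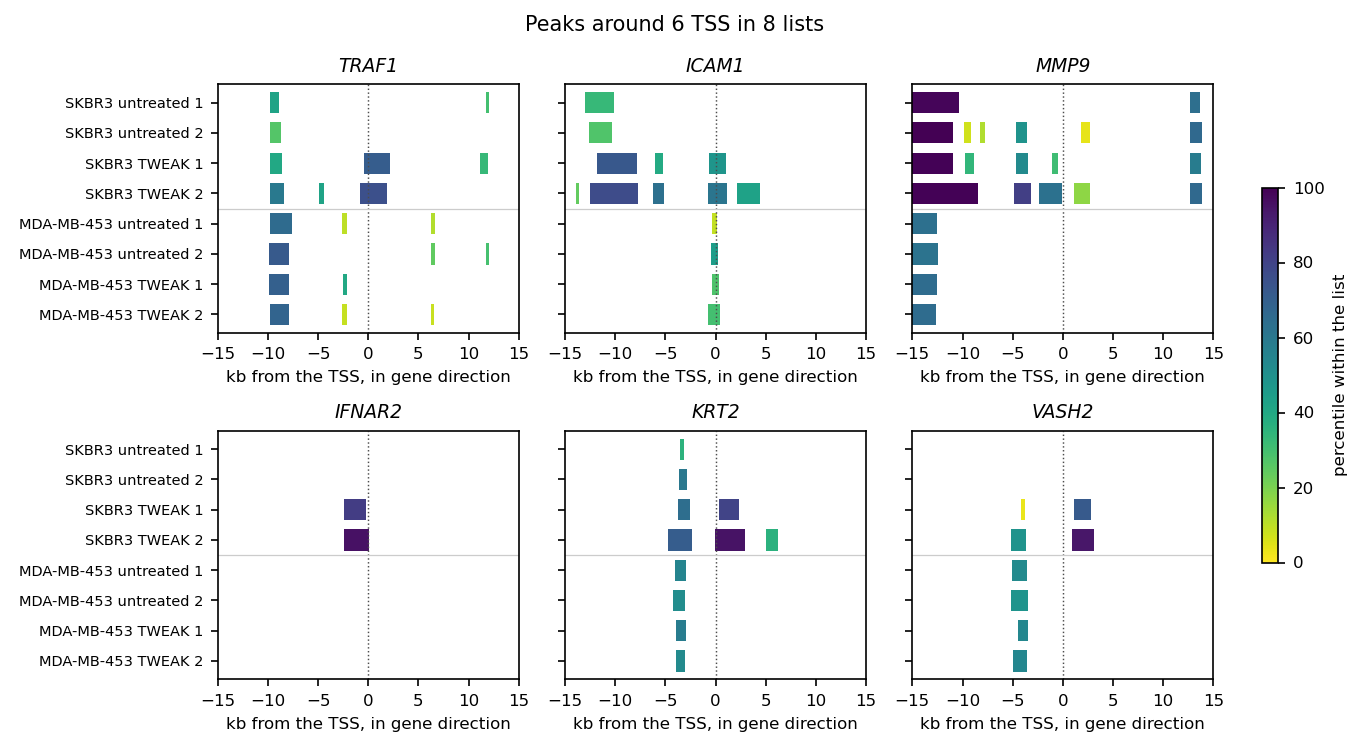
Bars are the peaks of each of the 8 lists within 15 kb of the TSS of 6 genes, drawn in the direction of the gene and coloured by percentile within the list; the dotted line is the TSS. At TRAF1, ICAM1, IFNAR2 and KRT2 only the TWEAK lists among the SKBR3 lists hold a peak within 2 kb of the TSS, while ICAM1 has one in all 4 MDA-MB-453 lists.

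The other lists gave few members. Of 24 AP-1 and immediate early genes, only FOSL1, the AP-1 subunit Fra-1, had a gained region. It had percentiles of 44.6 and 7.46, lay 244 bp from a non-canonical TSS, and was listed in all 4 MDA-MB-453 libraries at percentiles 51.1, 60.8, 57.8 and 51.6. Of 31 interferon response genes, only GBP1, an interferon-induced GTPase, had one, at percentiles 2.52 and 25.6. Neither call held with lists of equal size. None was found among 30 genes of TNF receptor signalling, 32 of cell adhesion and the mesenchymal state, or 20 luminal markers. In the TNF receptor list 25 of 30 genes already had a region in all 4 lists, as did 21 of the 24 AP-1 genes and 16 of the 20 luminal genes.

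At genes whose promoters carried a peak in every SKBR3 list, the ranks were compared within lists. A peak within 1 kb of a TSS was asked of each list here, and not only a merged region. Both TWEAK percentiles exceeded both untreated ones at 7 of 23 NF-κB targets, where all 10654 such protein-coding genes gave 8.90%, and both were lower at 2, where the background was 25.9%. The 7 were BIRC3, NFKB2, NFKBIE, TNFAIP2, IL6, SOD2 and CFLAR, among which BIRC3, an inhibitor of apoptosis, had percentiles of 69.7 and 55.9 without TWEAK and 89.4 and 94.2 with it. IL6 had 19.1 and 53.6 without and 68.2 and 80.8 with TWEAK. The 2 lower genes were LCN2 and TNIP1. TNIP1, named above as gained under the stricter threshold, had 98.9 and 96.0 without and 94.6 and 95.4 with TWEAK. TNF lay in a merged region that all 4 lists shared, so it fell outside the rule. Within 1 kb of its TSS it had a peak at percentile 34 in untreated replicate 1, none in untreated replicate 2, and peaks at 86.3 and 90.0 in the TWEAK lists. The interferon response list gave 6 of 17 genes higher and 2 lower. Among the 6, TAP1 and PSMB9 had identical percentiles in all 8 lists, so they are not separate counts. The adhesion and mesenchymal list gave 4 of 11 higher and 0 lower, so such ranks were also found outside the NF-κB list. The AP-1 list gave 2 of 21 higher and 4 lower, the TNF receptor list 6 of 25 higher and 7 lower, and the luminal list 0 of 15 higher and 3 lower. These counts come from the same 4 libraries that chose the regions and have no test. The gene lists were chosen with earlier results of these data known.

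Other members were picked after their values were seen, by no list and with no count behind them. NLRP1, an inflammasome sensor, had percentiles of 45.4 and 54.0, with an NF-κB match 17 bp upstream of its TSS and 3 AP-1 matches. PI3, the protease inhibitor elafin, had 36.4 and 61.5, with an NF-κB match 136 bp upstream. FKBP5, a co-chaperone of steroid receptors, had 37.4 and 69.3, and its region was already strong in MDA-MB-453, between 87.2 and 88.9 in the 4 lists. IL16, IL7R and IL1R2 had lower and less even values, with 54.1 and 67.7 for IL16, 9.85 and 63.9 for IL7R and 18.8 and 64.6 for IL1R2. LAG3, an immune checkpoint receptor, ranked higher in replicate 1, with 47.4 and 10.5.

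A smaller share of the gained than of the lost and the constant promoters belonged to protein-coding genes. A protein-coding TSS lay within 1 kb of 109 of the 259 (42.1%, 95% Wilson interval 36.2 to 48.2). The shares were 73.2% (66.3 to 79.1) for lost promoter regions and 79.9% for those in all 4 lists. Promoter regions found in 1 list alone gave 46.2% and 64.6% for the untreated libraries and 38.7% and 36.1% for the TWEAK libraries, so shares as low were also found outside the gained set. Of the other 150, 90 were at a lncRNA, 33 at a pseudogene, 23 at a small or structural RNA and 4 at other types. Where the gene was protein-coding, the TSS was the canonical one in 60 of 109 (55%), against 80.2% of lost regions and 91.4% of those in all 4 lists. A region held the TSS itself in 131 cases (50.6%), against 57.5% and 92.1%. These intervals cover counting error only, and regions of the same libraries are not replicates.

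Few gained regions lay at genes with constant acetylation at another start site, and over all gene types the share was close to that of other promoters. Another TSS of the same gene, over 1 kb away, had a region in all 4 lists for 39 of 259 (15.1%, 11.2 to 19.9). Among the 109 at a protein-coding TSS it did for 34 (31.2%, 23.3 to 40.4). Over all gene types, the lost set gave 15.6% and the promoter regions in all 4 lists 12.9%. Those sets hold larger shares of protein-coding TSS, and their values at protein-coding TSS alone were not computed. The nearest peak of any untreated list was a median of 12628 bp away, under 1 kb for 8 regions, under 5 kb for 78 and over 10 kb for 148. Another gained region lay within 50 kb of 73 of them (28.2%), close to the 26.2% of gained regions away from a TSS.

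Their base composition was close to that of gained regions away from promoters. GC content in the 1000 bp around the midpoint had a median of 45.7%, beside 43.4% in gained regions away from a TSS, 61.0% in lost promoter regions and 56.6% in those of all 4 lists. The ratio of observed to expected CpG had a median of 0.213, against 0.623 in both other promoter sets. The libraries themselves differed in this respect. Promoter regions found in 1 list alone had a median GC of 52.1% and 57.5% for the untreated libraries and of 50.3% and 44.7% for the TWEAK libraries. The part of this library difference in the base composition of the gained set was not tested.

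**Figure D4:**
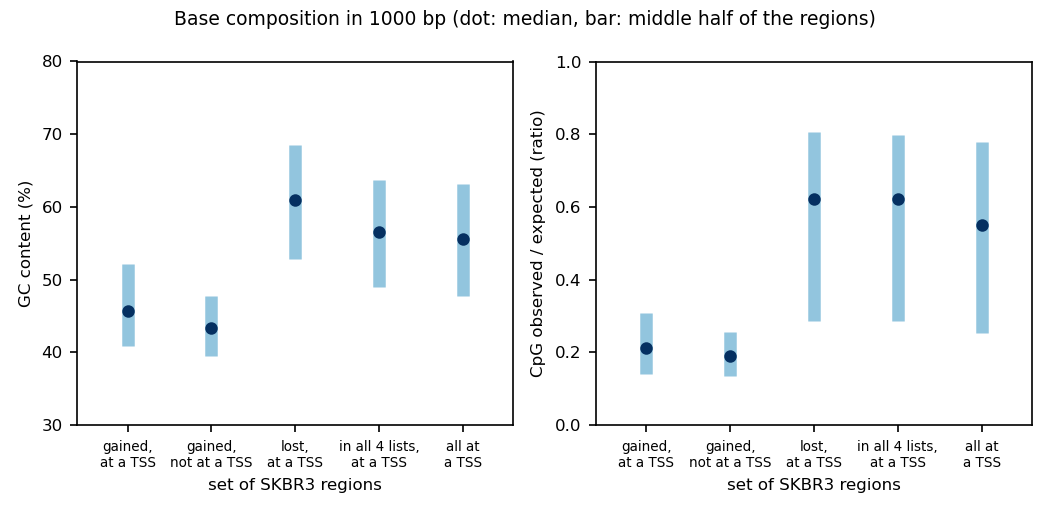
Median (dot) and middle 50% of regions (bar) of GC content in %, left, and of the ratio of observed to expected CpG, right, for 5 sets of SKBR3 regions. Gained regions at a TSS, with medians of 45.7% and 0.213, sit next to gained regions away from a TSS and below the lost, the constant and all promoter regions.

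NF-κB matches were found in 87 of the 259 regions (33.6%, 28.1 to 39.5). Lost promoter regions gave 19.0% (13.9 to 25.4), promoter regions in all 4 lists 19.3% and all regions at a TSS 19.4%. All 62104 merged regions gave 15.1%. The intervals cover counting error only, and regions of the same libraries are not replicates, so the intervals test no difference between sets. Gained regions away from a TSS gave 28.8%. The narrower consensus was in 30 of 259 (11.6%, 8.24 to 16.1), in 1 of 179 lost regions (0.559%) and in 1.60% of those in all 4 lists. Gained regions away from a TSS gave 8.06% (7.07 to 9.17), an interval that overlaps that of the gained promoters. AP-1 matches were in 90 gained regions (34.7%, 29.2 to 40.7), against 11.7% (7.80 to 17.3) of lost regions and 14.2% of those in all 4 lists. They were in 36.6% of gained regions away from a TSS and in 23.9% of all merged regions. Both motifs were in 36 gained regions and neither in 118. Both strands were searched, and matches to the 2 motifs were counted independently.

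**Figure D5:**
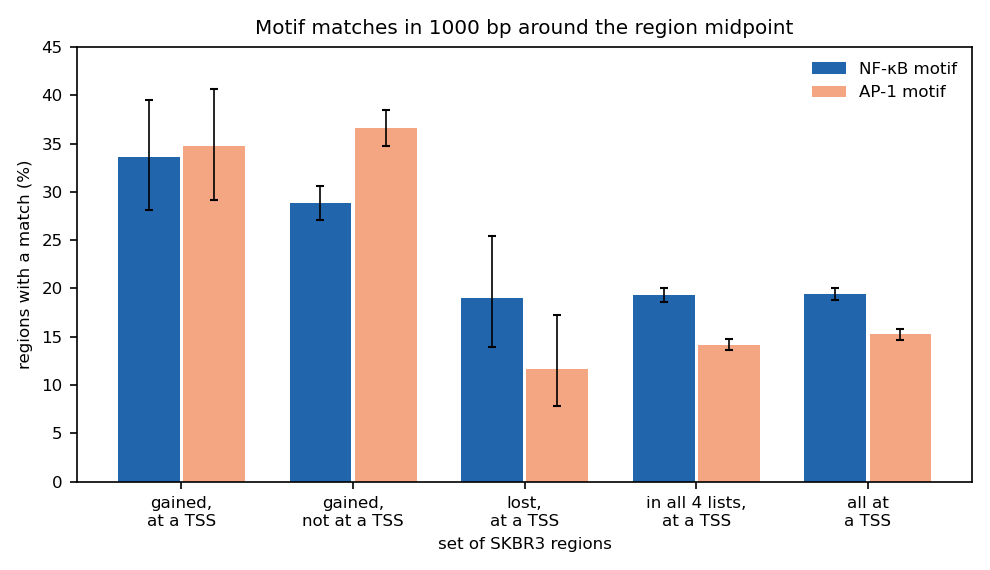
Bars give the percent of regions with an NF-κB (blue) or AP-1 (orange) match in the 1000 bp around the midpoint in 5 sets of SKBR3 regions, with 95% Wilson intervals that cover counting error only. Gained promoter regions, at 33.6% and 34.7%, stand above the other 3 promoter sets and near gained regions away from a TSS.

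GC content moves with these shares, so they were also read within classes of it. Of the gained promoter regions, 119 had a GC content under 45%, 94 from 45% to 55% and 46 of 55% or over. NF-κB matches were in 19.3%, 44.7% and 47.8% of them, and in 7.56%, 14.7% and 24.8% of promoter regions in all 4 lists. The narrower consensus was in 7.56%, 18.1% and 8.70%, against 1.28%, 1.11% and 1.94%. AP-1 matches were in 37.8%, 35.1% and 26.1%, against 20.3%, 19.2% and 9.98%. The gained set was higher than the constant set in each class. Gained regions away from a TSS gave 22.2%, 37.1% and 49.6% for NF-κB and 7.06%, 9.29% and 11.4% for the narrower consensus. For AP-1 they gave 37.3%, 36.9% and 26.0%. The lost set had only 15 regions in the lowest class, of which 4 held an NF-κB match, so no order can be read there.

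NF-κB matches were more frequent among the stronger gained regions. With the 259 regions cut by rank into an upper class of 86, a middle class of 87 and a lower class of 86, they were in 47.7% (37.4 to 58.1), 26.4% and 26.7%. The narrower consensus was in 20 regions of the upper class (23.3%) and in 5 of each of the others. AP-1 matches were in 40.7%, 37.9% and 25.6%. Of the 25 regions with −log10 q of at least 5 in both TWEAK lists, 15 held an NF-κB match (60.0%, 40.7 to 76.6). The ranks come from the same TWEAK peaks that chose the regions. The rank classes were not read within classes of GC content, and their order was not tested. Promoter regions found in 1 list alone had NF-κB matches in 17.4% and 17.7% for the untreated libraries and in 22.7% and 19.0% for the TWEAK libraries, all lower than in the regions that both TWEAK libraries shared.

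Against the other promoters, the remaining motifs went both ways. The GC box GGGCGG was in 27% of gained promoter regions, against 69.8% of lost ones and 65.4% of those in all 4 lists, and the ETS core CCGGAA in 10.4%, against 31.3% and 37.0%. The TATA element TATAAA was higher, in 45.2% against 21.2% and 26.4%, and so was the forkhead motif TGTTTAC, in 17.4% against 7.82% and 10.6%. The interferon-stimulated response element was in 13.5% (9.88 to 18.2), against 6.70% (3.88 to 11.4) and 10.9%, and these intervals overlapped. Gained regions away from a TSS gave 14.2%, 8.14%, 52.3% and 18.5% for the first 4 of these motifs, on the same side of the other promoters as the gained promoters. All 62104 merged SKBR3 regions gave 29.1%, 15.4%, 45.1% and 17.0% for these 4, and 13.9% for the interferon-stimulated response element. The gained promoters were near these shares except for the ETS core, where they were lower.

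The MDA-MB-453 libraries, which had no part in the choice, allowed a test of TWEAK over the same regions. Peaks were present at 41 and 44 of the 259 regions without TWEAK and at 46 and 44 with it. The groups overlapped, with means of 42.5 ± 2.12 and 45 ± 1.41 (SD, n = 2 each) and a difference of 2.50 (exact two-sided permutation test, p = 0.667, adjusted p = 0.833 by Benjamini-Hochberg over 5 measures). The length of the regions covered by peaks was 27.6 and 31.0 kb without TWEAK and 33.5 and 31.7 kb with it, a difference of 3.32 kb whose groups did not overlap (exact p = 0.333, adjusted p = 0.833). This is the smallest p that 6 assignments of 4 libraries allow, so no difference could pass a threshold of 0.05. Lost promoter regions had peaks at 88 and 93 regions without TWEAK and at 98 and 94 with it, a difference of 5.50 without overlap (exact p = 0.333, adjusted p = 0.833), and gained regions away from a TSS at 336 and 355 without and 353 and 349 with it (difference 5.50, exact p = 1.00). The median percentile over the gained promoter regions present in every MDA-MB-453 list was 45.2 and 48.3 without TWEAK and 50.2 and 46.0 with it (exact p = 0.667, adjusted p = 0.833).

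By single regions, 206 of the 259 had no peak in any MDA-MB-453 list (79.5%, 74.2 to 84.0), 36 had a peak in all 4 (13.9%, 10.2 to 18.6) and 17 in some. In the lost set 40.8% had none and 45.3% had all 4, and in the promoter regions of all 4 SKBR3 lists 13.2% and 83.6%. Gained regions away from a TSS were closest, with 83.9% and 11.2%. Only GUCY1B2, a pseudogene of a guanylate cyclase subunit, was gained in MDA-MB-453 as well, with weak peaks at percentiles 9.80 and 0.961 there and 51.6 and 59.5 in SKBR3. The region of the ribosomal pseudogene RPL35AP9, picked after its values were seen, was lost there. Over all 15357 SKBR3 regions at a TSS, 0.339% were gained and 0.260% lost in MDA-MB-453, so 1 of 259 in each direction is near the background.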

How the data were processed

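H3K27ac ChIP-seq was measured in SKBR3 and MDA-MB-453 cells, 2 libraries per line and treatment. The 2 input samples were not used here. Per the labels and the study's methods, the authors aligned reads to hg38 with Bowtie2 and called peaks per library with MACS2 against input. Versions and calling options are not given in the sources used here. Each of the 8 deposited lists has 9 columns, among them the authors' score, a fold enrichment (ratio over background), and the −log10 of the p-value and the q-value. A low signal may miss the caller's threshold, and a longer list finds more regions. The study compared signal on reads with DiffBind, while presence per list was compared here.

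Overlapping peaks (1 bp or more, chromosomes 1 to 22 and X) of the 4 lists of SKBR3 were merged. A TSS was any of GENCODE release 44, basic set. Percentiles are ranks by −log10 q within a list. Motifs were searched on hg38 in the 1000 bp around each region midpoint, both strands. Of 108 protein-coding genes at members, 80 matched RefSeq promoters by symbol. Shares carry 95% Wilson intervals. The MDA-MB-453 contrast used exact permutation tests. Named regions were the 12 highest protein-coding and 5 highest other members by mean percentile, members at listed genes, the 3 widest, members gained in both lines, up to 5 with 2 or more NF-κB matches, and 2 on each side of the distance limit. The members, gene lists and rules were chosen with earlier results of these data known. Merging and counting were tested on simulated data. Python 3.11.15, numpy 2.4.6 and scipy 1.17.1 were used. Alternatives were a threshold of −log10 q of 5, lists of equal size, 50% overlap, merging across 1 kb, other windows, TSS types and motifs, a replicate block, and leaving out each library.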

Additional observations from a re-analysis of the deposited data

How the results depend on the processing

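The count of gained promoter regions was 259 as reported and between 207 and 388 under the thresholds, list sizes, overlaps, merging and windows tried, and 109 with protein-coding TSS only. The lost count of 179 became 79 at −log10 q of at least 5 and 367 with 50% overlap. The excess of gained over lost did not hold with lists of equal size (207 and 234) or with protein-coding TSS only (109 and 131). At −log10 q of at least 5, 228 regions were gained but only 25 of the 259 were among them. Leaving out 1 SKBR3 library gave 412 to 810 gained and 388 to 629 lost regions, since 1 library of that treatment then decides. Without untreated replicate 1 the counts were 412 and 565, without untreated replicate 2 they were 503 and 629, without TWEAK replicate 1 they were 810 and 400, and without TWEAK replicate 2 they were 443 and 388.

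The NF-κB share of 33.6% became 19.3% and the AP-1 share of 34.7% became 22.4% in a window of 500 bp, and the narrower NF-κB consensus gave 11.6%. Leaving out a library, added after seeing the data, gave 23.5 to 29.4% for NF-κB and 26.9 to 33.5% for AP-1. The shares at a protein-coding TSS and at genes with another region in all 4 lists moved by less than their intervals under every alternative run. Genes of the lists with a gained promoter numbered 5, and 6 at −log10 q of at least 5, of which only TRAF1 was shared, and 6 within 2 kb of a TSS.

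The MDA-MB-453 difference of 2.50 regions was 0 at −log10 q of at least 5, and with a replicate block it was 2.50 (exact permutation within numbers, p = 1.00, where the smallest possible is 0.5). Same-numbered libraries deviated with a correlation of 0.331 over 30803 regions in SKBR3 and −0.0372 over 31162 in MDA-MB-453. The labels do not say whether same-numbered libraries were prepared together, and with 2 pairs per line this was not tested. The difference ranged from 1.00 to 4 without 1 library. In total, 46 alternative values were classed as like the reported ones and 19 as moved. This classing is coarse, since gained counts of 378 and 388 were classed as like 259. A like count can also come from other regions, as with the 228 gained at −log10 q of at least 5. Where no construction of the alternative explains a change, the cause was not tested. Unknown depth and 2 libraries per group limit every count here.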

Other observations

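By chromosome, the share of regions at a TSS that were gained ran from 0% (0 of 216 regions on chromosome 18) to 3.52% (7 of 199 on chromosome 21), and was 2.16% on chromosome 1 (36 of 1665). Whether the chromosomes differ was not tested. Of the RefSeq promoter windows of member genes, 50 overlapped a gained region, of which 6 held an NF-κB match and 7 an AP-1 match. Some genes have several windows, and those of CHI3L2 share the same NF-κB match. The share over RefSeq promoters in general was not computed, so these counts have no background.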
